A study of Mus musculus with 6 samples.

Results

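The immediate early response genes described here are Fos, Fosb, Junb, Jun, Egr1, Egr2, Egr3, Ier2, Ier3 and Dusp1, a set of 10 mouse genes chosen by name. Of these, 9 have an entry among the 17169 gene entries of the deposited table, and Fosb, which has none, was not analysed here. The samples were 6 RNA sequencing libraries from 3 cell lines, BBC, ZNF and BCRF8C. They were derived from the marrow of diseased Balb/c mice and model SCLL (stem cell leukemia and lymphoma), a cancer of blood stem cells driven by fusions of the receptor kinase gene Fgfr1, whose partner in each line is not given in the sources used here. Each line was cultured for 24 h with BGJ398, an inhibitor of the kinase activity of FGF receptors, or with DMSO, the solvent, as its control. If the protocol names doses in the order of the lines, the dose was 30 nM for BBC, 3 nM for ZNF and 1.5 nM for BCRF8C, so that line and dose cannot be told apart. The labels give 1 library for each line and agent and name no separate cultures, so there was no replicate within a line.

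Immediate early genes are transcribed within minutes of a growth factor or stress signal, without new protein synthesis, and their short-lived transcripts disappear again soon after. FGF receptors reach them through RAS and the ERK kinases, which act on transcription factors bound at their promoters. Fos, Fosb, Jun and Junb encode subunits of the dimeric transcription factor AP-1, Egr1 to Egr3 encode zinc finger transcription factors, and Ier2 and Ier3 encode small proteins of the early response. Dusp1 encodes a phosphatase that switches mitogen-activated kinases off again. The design sets inhibited cells against control cells of the same line. A sample at 24 h measures the sustained level of these genes, not the first burst.

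Promoters of 7 of the 10 genes (all but Egr1, Egr3 and Ier2) were matched in the RefSeq table for GRCm38.p6 used here, and 4 are printed because they stand for the patterns below: Junb lower with BGJ398 in each line, Jun in different directions, Fos near or under 1 FPKM in DMSO, and Dusp1 with the mean difference nearest to 0. Each is the 250 bases before the gene's start, 5′ to 3′ on the gene's strand, at chr8:84978749-84978998 (minus strand) for Junb, chr4:95052223-95052472 (minus) for Jun, chr12:85473640-85473889 (plus) for Fos and chr17:26508473-26508722 (minus) for Dusp1. Capitals mark TGACG, the core of the cyclic AMP response element, the full element TGACGTCA, the TATA box TATAAA, and in Jun the sites TGACATCA and MEF2.
Junb: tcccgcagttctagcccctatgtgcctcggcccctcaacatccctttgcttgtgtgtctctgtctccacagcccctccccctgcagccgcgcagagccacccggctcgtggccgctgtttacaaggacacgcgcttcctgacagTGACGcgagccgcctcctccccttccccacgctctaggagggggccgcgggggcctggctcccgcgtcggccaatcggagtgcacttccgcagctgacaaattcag
Jun: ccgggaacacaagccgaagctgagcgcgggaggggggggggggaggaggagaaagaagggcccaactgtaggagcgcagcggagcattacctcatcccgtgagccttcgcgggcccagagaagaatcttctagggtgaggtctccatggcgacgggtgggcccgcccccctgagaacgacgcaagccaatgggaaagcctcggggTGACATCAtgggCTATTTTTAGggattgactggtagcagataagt
Fos: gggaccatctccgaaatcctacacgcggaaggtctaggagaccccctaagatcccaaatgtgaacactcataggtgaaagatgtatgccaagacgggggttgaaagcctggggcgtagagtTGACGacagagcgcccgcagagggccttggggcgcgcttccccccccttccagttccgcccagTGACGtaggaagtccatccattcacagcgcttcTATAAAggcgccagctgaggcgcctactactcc
Dusp1: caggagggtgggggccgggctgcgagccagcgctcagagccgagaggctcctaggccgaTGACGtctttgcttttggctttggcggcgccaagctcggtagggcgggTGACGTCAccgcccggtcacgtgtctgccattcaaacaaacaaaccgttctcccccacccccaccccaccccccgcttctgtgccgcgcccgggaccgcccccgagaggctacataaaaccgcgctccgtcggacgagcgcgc

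Both strands of the 7 promoters were searched. TGACG stood in 4 of them (Fos, Fosb, Junb and Dusp1), against 17.8% of 32851 promoter windows of the same length. The full TGACGTCA, which contains TGACG, was found in Dusp1 alone, and in 1.55% of all windows. TATAAA was found in Fos alone, against 12.4%. The ETS core GGAA stood in 6 of 7, against 93.4% of all windows, and an EGR site, GCGGGGGCG or GCGTGGGCG, stood in Fosb, against 3.06%. The CArG box, at which serum response factor binds, and the AP-1 sites TGACTCA and TGAGTCA had 0 matches in these windows, against 1.47% and 4.46% of all windows. TGACATCA and the MEF2 site of Jun, which were added after its promoter had been read, were present in 2.93% and 0.508% of all windows.

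The values are FPKM, which scale fragments by transcript length and library size, so levels of different genes can be set side by side, and their sequencing depth is unknown. Over the 14232 entries that averaged 1 FPKM or more across the libraries, which were those tested, the median was 4.53 FPKM with BGJ398 and 9.95 in DMSO in BBC, 6.47 and 8.36 in ZNF, and 4.92 and 9.03 in BCRF8C. The median log2 ratio of these entries was -0.69, so a gene that merely moved with the rest was lower with BGJ398. The table also leaves out low pairs. In BBC, each of the 17155 listed entries reached at least 1.02 FPKM in at least 1 of its libraries, and in ZNF and BCRF8C all but 1 of 13984 and 2 of 15529 listed entries reached 0.88 FPKM, while 3185 and 1640 others were at 0 in both libraries. An entry under that limit in DMSO therefore had to be higher with BGJ398, as were 4062 of 4062 such entries in BBC, 2877 of 2878 in ZNF and 4345 of 4347 in BCRF8C. Blood cell markers were present in all libraries, with Ptprc between 39.5 and 176 FPKM. All 7 B lineage markers were above 1 FPKM in both BBC libraries, and their sum in the other DMSO libraries was at most 0.654 FPKM, and with BGJ398 at most 9.10. The T lineage markers summed to 475 FPKM with BGJ398 and 715 in DMSO in ZNF, against at most 33.8 in any library of BBC and BCRF8C. The part of these differences in the results was not tested.

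Junb was the most abundant of the 9 genes in every DMSO library. Junb (ENSMUSG00000052837, chromosome 8, 87500811 to 87502617 in NCBIM37) had 15.4, 7.65 and 4.42 FPKM with BGJ398 in BBC, ZNF and BCRF8C, against 44.4, 11 and 74.9 FPKM in DMSO. In bulk RNA, fewer cells of a type and less RNA per cell cannot be told apart. Junb was lower with BGJ398 in each line, but the groups overlapped, since the BBC library with BGJ398 was above the ZNF library in DMSO. The level with BGJ398 was 34.8% of that in DMSO in BBC, 69.6% in ZNF and 5.9% in BCRF8C. On the log2(FPKM + 1) scale, which understates changes of low genes, the mean difference was -1.92 ± 1.71 (SD, n = 3 lines), with a 95% interval from -3.45 to -0.38. It did not pass in limma, where each line was paired with itself (adjusted p = 0.0550). Measured against the other genes of its library, Junb stood apart in BCRF8C, where it ranked above 45.8% of the tested entries with BGJ398 and above 90.5% in DMSO. In BBC its rank was 82.9% with BGJ398 and 83.9% in DMSO, and in ZNF 55% and 56.2%. In the mouse annotation (GENCODE vM21), 173 of 2301 exon bases of Junb overlap Prdx2 on the other strand. Whether reads were counted by strand is not given in the sources used here, so reads of that stretch cannot be assigned to either gene. Prdx2 had 26.3, 117 and 36.7 FPKM with BGJ398, against 113, 198 and 146 in DMSO.

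Jun, the founding AP-1 subunit, went in different directions in the lines. Jun (ENSMUSG00000052684) had 9.64, 4.66 and 4.17 FPKM with BGJ398 in BBC, ZNF and BCRF8C, against 16.7, 1.19 and 15.9 FPKM in DMSO. It was lower with BGJ398 in BBC and BCRF8C, at 57.6% and 26.3% of DMSO, and 3.93-fold higher in ZNF. ZNF in DMSO was the lowest of the 6 libraries, and with BGJ398 the 3 lines lay within 4.17 and 9.64 FPKM. By line, BBC differed by -0.74, ZNF by 1.37 and BCRF8C by -1.71 on the log2 scale, with a mean of -0.36 ± 1.57 (limma adjusted p = 0.624, 95% interval -1.76 to 1.05). The direction in ZNF was not set by the listing limit, since Jun was above it in DMSO. Of the 10964 entries that reached 1.02 FPKM in DMSO in ZNF, 3.06% were at least 2-fold higher with BGJ398. That share pools entries of every level from 1.02 FPKM up. Jun had 1.19 FPKM in DMSO, near the limit, so the share does not show how rare its difference was at its own level. Its value stayed above 0 in ZNF once quantile normalization had given all libraries the same distribution (0.96), and once a curve of the ratio against mean level had been subtracted within the line (1.34, here called the expression trend removed). The table gives Jun and the antisense gene BC042782 (Junos) 1 shared locus, chromosome 4, 94715725 to 94834009, and 232 of 3189 exon bases of Jun overlap that gene. BC042782 had 0.318, 1.53 and 2.87 FPKM with BGJ398, against 1.23, 0.151 and 1.26 in DMSO. Its DMSO value in ZNF was under the listing limit, and in BCRF8C it was higher with BGJ398 where Jun was lower.

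**Figure D1:**
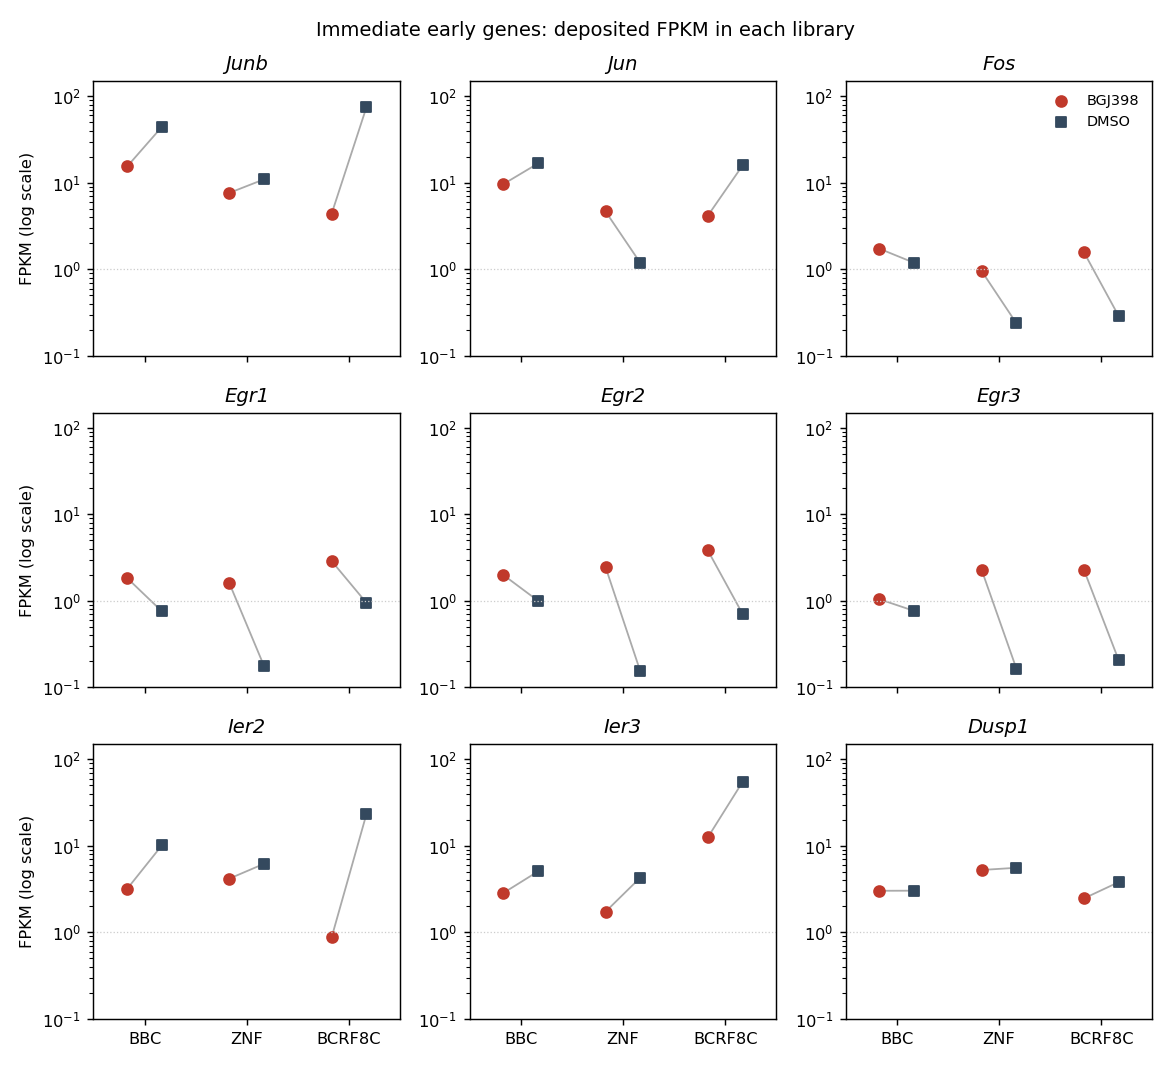
FPKM on a log axis for the 9 genes in each library, with BGJ398 (circles) left of DMSO (squares) and a line joining the libraries of a cell line; the dotted line marks 1 FPKM. Junb, Ier2 and Ier3 lie lower with BGJ398 in each line, Jun is higher with BGJ398 in ZNF alone, and Fos and the Egr genes lie between 0.153 and 1.19 FPKM in DMSO.

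Of the other Jun gene, Jund, the libraries held more than of Junb or Jun. Jund made up 61.8%, 58.7% and 73.7% of the summed FPKM of Junb, Jun and Jund with BGJ398 in BBC, ZNF and BCRF8C, against 52.6%, 60.5% and 62.0% in DMSO. The share of Junb was 23.5%, 25.7% and 13.5% with BGJ398, against 34.4%, 35.7% and 31.4% in DMSO, and was lower with BGJ398 in each line. The share of Jun was 14.7%, 15.6% and 12.8% with BGJ398, against 13.0%, 3.85% and 6.65% in DMSO. Multiplying a library by a common factor leaves these shares unchanged. Quantile normalization and removal of the expression trend act on genes by level and can change them. The shares were not computed on those scales. The summed level was 65.6, 29.8 and 32.6 FPKM with BGJ398, against 129, 30.8 and 239 FPKM in DMSO, and ZNF was the line in which both sums were close. No test was made on these shares.

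**Figure D2:**
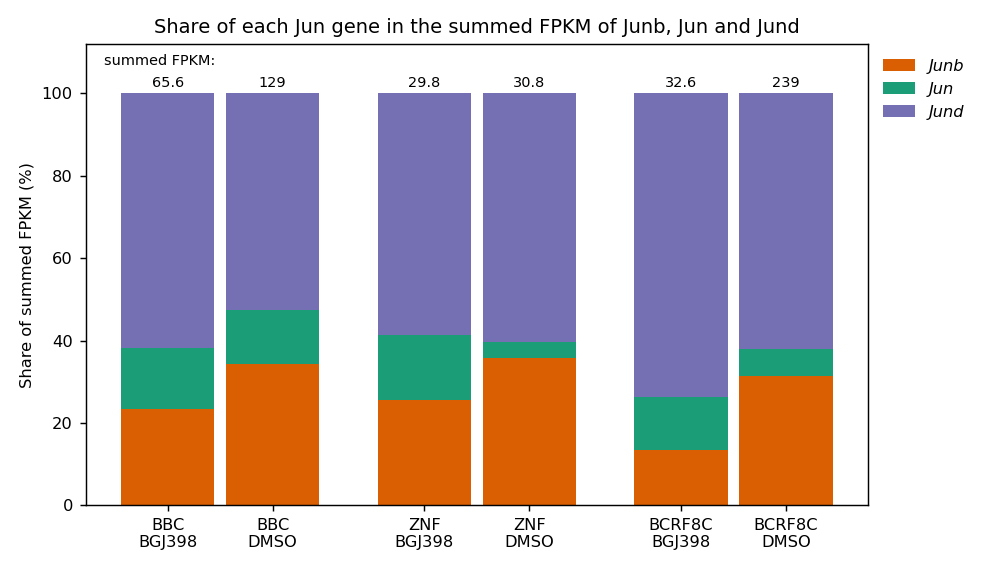
Stacked bars give the percentage of the summed FPKM of Junb, Jun and Jund that each gene contributed in each library, with BGJ398 left of DMSO in each line and the summed FPKM above each bar. The Junb share is lower with BGJ398 in each line, and the Jun share is 15.6% with BGJ398 and 3.85% in DMSO in ZNF.

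Among the Ier genes, Ier3 was the 1 gene of the set that passed the test across lines. Ier3 (ENSMUSG00000003541, chromosome 17, 35958629 to 35959868), a survival gene of the early stress response also known as IEX-1, had 2.85, 1.73 and 12.5 FPKM with BGJ398 in BBC, ZNF and BCRF8C, against 5.07, 4.30 and 54.8 FPKM in DMSO. Across lines it fell by 1.22 in log2 units (SD 0.73, n = 3, limma adjusted p = 0.0437) and was lower in 3 of 3 lines, at 56.2%, 40.3% and 22.8% of DMSO. The groups overlapped, because BCRF8C with BGJ398 stayed above BBC and ZNF in DMSO. The call was lost without any 1 of the lines, at -1.5 without BBC (adjusted p = 0.235, where 0 of all entries passed), -1.35 without ZNF (0.0896) and -0.81 without BCRF8C (0.241). It was also lost at a pseudocount of 5 (0.0788), without the intensity trend of limma (0.0574), without the pairing by line (0.399), and with median-of-ratios scaling (0.286), quantile-normalized values (0.281) or the expression trend removed (0.349).

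Ier2 (ENSMUSG00000053560, chromosome 8, 87185230 to 87186751), which encodes a nuclear protein of the early response, had 3.19, 4.19 and 0.883 FPKM with BGJ398 in BBC, ZNF and BCRF8C, against 10.2, 6.22 and 23.4 FPKM in DMSO. Each BGJ398 library was below each DMSO library. The level with BGJ398 was 31.4%, 67.4% and 3.78% of DMSO, and the mean log2 difference of -1.86 ± 1.65 did not pass (limma adjusted p = 0.0528, 95% interval -3.32 to -0.40). As with Junb, BCRF8C had the widest gap, with a rank above 7.33% of tested entries with BGJ398 and 71.7% in DMSO. Ier2 and Junb stayed at least 2-fold lower in BCRF8C on other scales, at -3.67 and -2.91 with quantile-normalized values and -2.79 and -2.37 without the expression trend.

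Dusp1 (ENSMUSG00000024190, chromosome 17, 26642535 to 26645464), the phosphatase gene, had 3.03, 5.26 and 2.47 FPKM with BGJ398, against 3.03, 5.58 and 3.81 FPKM in DMSO. The levels in BBC and ZNF were 99.7% and 94.3% of DMSO, and that in BCRF8C was 64.8%. The mean log2 difference was -0.18 ± 0.25 (limma adjusted p = 0.619), with a 95% interval from -0.89 to 0.52, which does not show that the level was the same. Dusp1 was the 1 gene of the set that was highest in ZNF with both agents. Its exons share 11 of 3311 bases with Ergic1 on the other strand.

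Fos was low in all libraries. Fos (ENSMUSG00000021250, chromosome 12, 86814840 to 86818223), the partner of the Jun proteins in AP-1, had 1.73, 0.954 and 1.58 FPKM with BGJ398 in BBC, ZNF and BCRF8C, against 1.19, 0.238 and 0.288 FPKM in DMSO. It was higher with BGJ398 in each line, and the groups overlapped. In ZNF and BCRF8C its DMSO level lay under the listing limit, so its direction there is set by the table, and only the BBC difference of 0.32 on the log2 scale was free of that. With a mean of 0.996 FPKM Fos was just under the limit for the test, and without that limit the mean log2 difference of 0.66 ± 0.34 did not pass (limma adjusted p = 0.177). With quantile-normalized values Fos turned to -0.34 in ZNF and -0.24 in BCRF8C, with a mean of -0.15.

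The Egr genes were near or below 1 FPKM in DMSO and between 1.04 and 3.83 FPKM with BGJ398. Egr2 (ENSMUSG00000037868, chromosome 10, 66998223 to 67004936), a transcription factor gene of developing and anergic lymphocytes, had 2.0, 2.45 and 3.83 FPKM with BGJ398 in BBC, ZNF and BCRF8C, against 1.0, 0.153 and 0.707 FPKM in DMSO. Egr1 (ENSMUSG00000038418, chromosome 18, 35019477 to 35024763), the classic ERK-responsive member, had 1.83, 1.59 and 2.88 FPKM with BGJ398, against 0.755, 0.174 and 0.948 FPKM in DMSO. Egr3 (ENSMUSG00000033730, chromosome 14, 70477252 to 70479964), which acts with Egr2 in lymphocytes, had 1.04, 2.28 and 2.28 FPKM with BGJ398, against 0.765, 0.164 and 0.206 FPKM in DMSO. For each of the 3 genes every BGJ398 library was above every DMSO library. The mean log2 differences were 1.22 ± 0.55 for Egr2 (limma adjusted p = 0.0568), 0.94 ± 0.23 for Egr1 (0.0937) and 1.05 ± 0.72 for Egr3 (0.116), and none passed. Egr2 was called higher without the limit on the mean (0.0481), without the intensity trend of limma (0.0483), and among entries above 0 in all libraries (0.0206). The direction is not a result in 8 of these 9 pairs, because the DMSO value was under the listing limit there. The exception was Egr1 in BCRF8C, whose 0.948 FPKM in DMSO was just above the limit of 0.88. It was 3.03-fold higher with BGJ398. Its log2 difference of 0.99 was 0.40 with quantile-normalized values and 0.19 without the expression trend. Egr2 in BCRF8C was the 1 Egr value at least 2-fold higher after quantile normalization (1.17), and it was 0.80 with the trend removed. Its DMSO value was under the listing limit, which neither scale undoes, so this is no evidence of a rise.

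**Figure D3:**
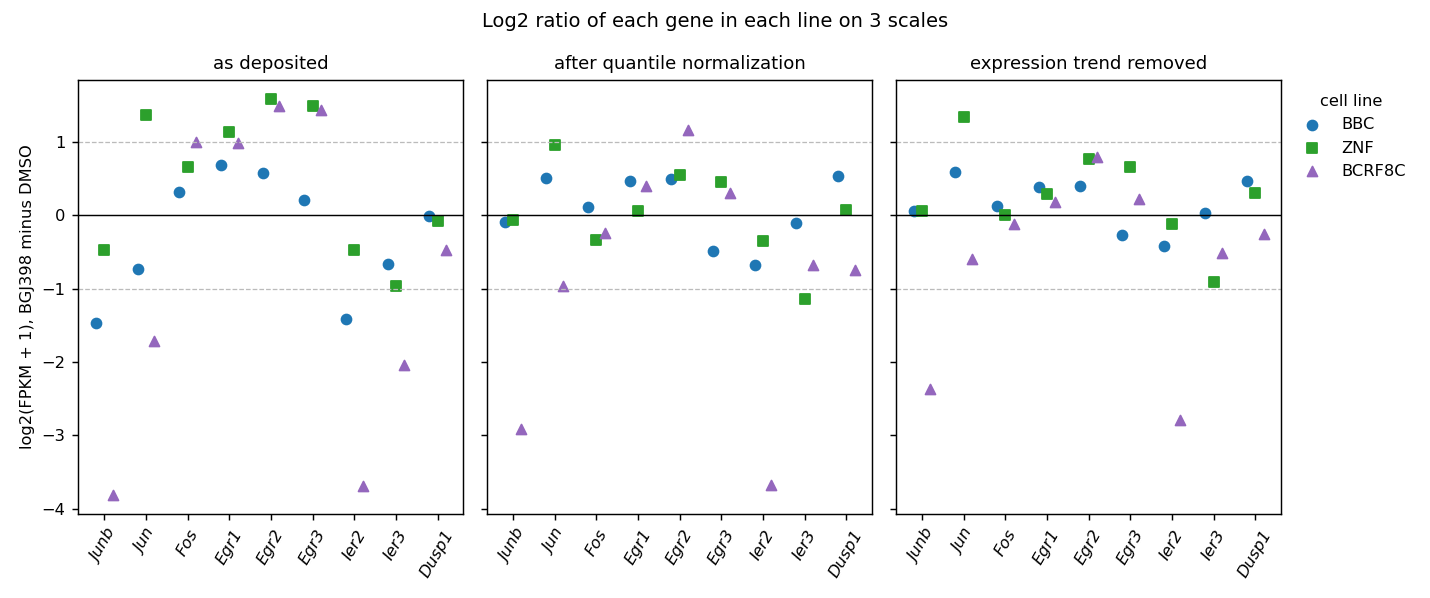
Difference of log2(FPKM + 1), BGJ398 minus DMSO, for each gene in BBC (circles), ZNF (squares) and BCRF8C (triangles), in panels for the deposited values, the quantile-normalized values and those without the expression trend; dashed lines mark 2-fold. Junb and Ier2 in BCRF8C lie between -3.81 and -2.37 on all 3 scales and Jun in ZNF between 0.96 and 1.37, while the other values without the trend lie between -0.91 and 0.80.

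The counts of the set stand beside those of all genes, and the difference between the shares was not tested. Of the 8 tested, 1 was called lower in limma at an adjusted p under 0.05, beside 30.2% of all tested entries. Called higher were 0, beside 6.61%. An unadjusted p under 0.05 was reached by 4 of the 8, beside 7812 of all 14232 tested entries. Among entries averaging 5 FPKM or more, Junb (adjusted p = 0.0280), Ier2 (0.0326) and Ier3 (0.0269) were called lower. Jun, the other gene of the set at that limit, was not called (limma adjusted p = 0.578). At that limit 4910 of all entries were called lower and 315 higher. The number of entries tested there is not given here, so no share stands beside these calls. Of the 8, 4 were lower with BGJ398 in all 3 lines (Junb, Ier2, Ier3 and Dusp1), beside 55.7% of all entries, and 3 were higher in all 3 (the Egr genes), beside 15.4%. These directions depend on the scale: Egr3 in BBC was -0.49 with quantile-normalized values and -0.27 without the expression trend, and without that trend Junb in BBC and ZNF was 0.06, Ier3 in BBC 0.04 and Dusp1 in BBC 0.47 and in ZNF 0.30. Junb and Ier2 had between 5 and 100 FPKM in DMSO in each line. Of all entries in that range, 94.6% were lower with BGJ398 in BBC, 91.7% in ZNF and 94.9% in BCRF8C. The BGJ398 libraries lay above the DMSO libraries without overlap for 3 genes, beside 11.3% of all entries, and below them for 1, beside 35.1%. The median log2 difference of the 8 genes was -0.27, beside -0.69 for all tested entries. Of the 27 pairs of a gene and a line, 13 were higher with BGJ398. In 3 of these the DMSO value was not under the listing limit, namely Fos in BBC, Jun in ZNF and Egr1 in BCRF8C. These DMSO values were near it, at 1.19 FPKM (limit 1.02), 1.19 FPKM (0.88) and 0.948 FPKM (0.88).

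Each line was then looked at alone, with no test, by counting genes that averaged 1 FPKM or more there and were 2-fold or more apart. In BBC 2 of 8 genes were lower with BGJ398 (Junb and Ier2), beside 45% of all entries, and 0 were higher, beside 8.79%. In ZNF 0 of 7 genes were lower, beside 16.3%, and 3 were higher (Jun, Egr2 and Egr3), beside 13.2%. In BCRF8C 4 of 8 were lower (Junb, Jun, Ier2 and Ier3), beside 43.5%, and 2 were higher (Egr2 and Egr3), beside 21.7%. The lower counts in BBC and BCRF8C thus did not exceed the share among all entries by more than 1 gene, and the higher counts include the Egr values whose direction the listing limit fixed. With the expression trend removed, Junb and Ier2 in BCRF8C and Jun in ZNF were the values at least 2-fold apart.

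**Figure D4:**
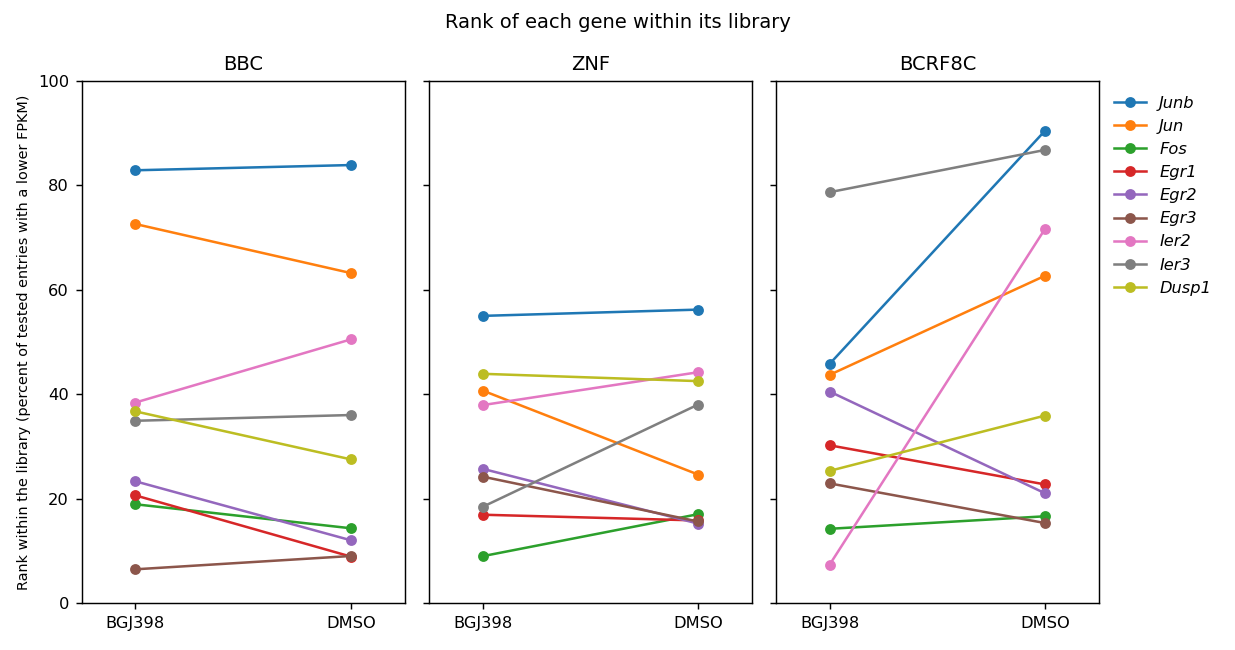
Rank of each gene within its library, as the percentage of the 14232 tested entries with a lower FPKM, with BGJ398 left of DMSO in one panel per line. In BCRF8C, Junb ranks at 45.8% with BGJ398 and 90.5% in DMSO and Ier2 at 7.33% and 71.7%, while in BBC and ZNF the rank of Junb differs by under 2 points.

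In DMSO the lines differed in the levels and the order of the early genes. BCRF8C held the highest levels of Junb, Ier2 and Ier3, and Ier3 at 54.8 FPKM was 10.8-fold above BBC and 12.8-fold above ZNF. Jun had 16.7 FPKM in BBC and 15.9 in BCRF8C, and was 14.1-fold higher in BBC than in ZNF. The order in BBC was Junb, Jun, Ier2, Ier3, Dusp1 and Fos, that in ZNF was Junb, Ier2, Dusp1, Ier3 and Jun, and that in BCRF8C was Junb, Ier3, Ier2, Jun and Dusp1, with the other genes near or under 1 FPKM. With 1 library a line, neighbours in these orders could not be tested. Of the 5 genes that averaged 1 FPKM or more in each pair of DMSO libraries, 2 were at least 2-fold apart between BBC and ZNF (Junb and Jun, both higher in BBC), beside 28.4% of all entries. Between BBC and BCRF8C 2 were apart (Ier2 and Ier3, both lower in BBC), beside 30.9%. Between ZNF and BCRF8C 4 were apart, all lower in ZNF (Junb, Jun, Ier2 and Ier3), beside 32.6%. With BGJ398 the order of the lines changed for Junb, which was highest in BBC at 15.4 FPKM and lowest in BCRF8C, and for Ier2, which was highest in ZNF, while Ier3 remained highest in BCRF8C.

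Calls in the lists that follow hold for FPKM as deposited, since 2 of all entries passed after quantile normalization and 0 without the expression trend (3084 at an unadjusted p under 0.05). Other AP-1 genes, dimer partners and inhibitors were followed as a list of 10, of which 8 were tested. Of these 1 fell, 0 rose and 7 did not pass, beside 30.2% of all entries that fell and 6.61% that rose, and the median log2 difference was -0.65, beside -0.69. Batf, an AP-1 factor of lymphocytes, had 5.72, 1.21 and 2.47 FPKM with BGJ398, against 36.3, 6.34 and 16.3 in DMSO, and fell by 2.17 (SD 0.39, limma adjusted p = 0.0348). It remained below 0 with quantile-normalized values (-1.77) and with the trend removed (-1.35). Jund had 40.5, 17.5 and 24.0 FPKM with BGJ398, against 68.0, 18.6 and 148 in DMSO, a difference of -1.13 ± 1.29 (adjusted p = 0.127). Jdp2, which encodes an AP-1 repressor, differed by -1.14 ± 0.83 (adjusted p = 0.0573) and Atf2, which pairs with Jun, by -0.41 ± 0.50 (adjusted p = 0.346). Of the EGR genes and co-repressors on a list of 3, 2 were tested. Egr4, a further Egr gene, had 2.23, 11.9 and 2.58 FPKM with BGJ398, against 1.09, 0.350 and 0.0491 in DMSO, where ZNF and BCRF8C were under the listing limit. Its mean log2 difference was 1.89 ± 1.32, with limma adjusted p = 0.0427, but the table fixed its direction in those lines, so this is no evidence of a rise. Nab1, a repressor of EGR proteins, did not pass (-0.85 ± 0.45, adjusted p = 0.0691).

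A list of 25 further immediate early genes had 21 tested members, of which 2 fell, 0 rose and 19 did not pass, beside 30.2% and 6.61% of all entries, with a median of -0.26, beside -0.69. Some of these members were under the listing limit in DMSO in some lines, so the table fixed their direction there. How far this moved the median was not tested. Dusp5, an ERK phosphatase gene, fell by 1.57 (SD 0.62, limma adjusted p = 0.0348), and Gadd45b, a stress sensor gene, fell by 1.36 (SD 0.66, adjusted p = 0.0359). The most abundant were the survival gene Mcl1 (-0.71 ± 0.34, adjusted p = 0.176), the growth-restraining genes Btg2 (0.48 ± 0.98, adjusted p = 0.393) and Btg1 (-0.10 ± 1.01, adjusted p = 0.866), and the kinase gene Sgk1 (-0.26 ± 0.70, adjusted p = 0.584). Btg2 had 26.6, 115 and 8.30 FPKM with BGJ398, against 12.3, 55.2 and 13.6 in DMSO, so it was higher in BBC and ZNF and lower in BCRF8C.

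Of 21 genes for kinases and factors upstream, 9 fell, 0 rose and 12 did not pass, beside 30.2% and 6.61% of all entries, with a median of -0.97, beside -0.69. The kinase gene Mapk3 (-1.08 ± 0.10, limma adjusted p = 0.0358) and the MEK genes Map2k1 (-1.66 ± 0.43) and Map2k2 (-1.83 ± 0.70), both at adjusted p = 0.0348, were among them. So was Creb1 (-1.05 ± 0.14, adjusted p = 0.0434), which encodes the factor that binds TGACGTCA. Srf, whose protein binds the CArG box, did not pass (-0.97 ± 0.62, adjusted p = 0.0603). With the expression trend removed, the ratios of these 5 genes lay between -0.53 and 0.15. Among 10 genes for the decay of AU-rich transcripts, to which immediate early transcripts belong, 6 fell, 0 rose and 4 did not pass, beside the same shares, with a median of -1.12. They included Elavl1, which encodes a stabilizing protein (-1.54 ± 0.57, adjusted p = 0.0348), and Cnot1, the scaffold of the deadenylase (-1.28 ± 0.42, adjusted p = 0.0400). Both genes had between 5 and 100 FPKM in DMSO in each line. All entries in that range had median log2 ratios of -1.28 in BBC, -0.65 in ZNF and -1.26 in BCRF8C. With the expression trend removed, Elavl1 was -0.49 and Cnot1 0.05. Zfp36, an early gene whose protein destabilizes such transcripts, did not pass (-0.34 ± 0.54, adjusted p = 0.406).

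Among 7383 named entries above 0 in all libraries and averaging 5 FPKM or more, the patterns most like that of Junb over the 6 libraries were those of Psmc2 (Pearson r = 0.989), Zbed3 (0.987), Nfatc1 (0.986), Rai1 (0.984) and Cyfip2 (0.981), and 2.18% of these entries had r of at least 0.9. The points share the 3 lines and the overall shift with BGJ398. Within the set, Ier2 was the gene nearest to Junb (r = 0.919 over the same 6 libraries).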

How the data were processed

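The authors deposited 1 table of FPKM values for 6 libraries, each column named as a sample title, with 0 value columns left unmapped. The submitters' processing notes name TopHat2 2.0.12, bcl2fastq and the build NCBIM37. How FPKM were estimated and filtered is not given in the sources used here. Low values of genes with 1 exon and transcript showed no steps of whole reads (strongest periodicity 0.286, where 1 would be perfect), so depth is unknown. Starts were raised by 1, since end minus start equalled the annotated length for 6377 of 15944 matched entries.

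Values were analysed as log2(FPKM + 1). The 14232 entries averaging 1 FPKM or more were tested with limma (version 3.58.1, R 4.3.3, eBayes with intensity trend) for BGJ398 minus DMSO, blocked by line, two-sided, with Benjamini-Hochberg adjustment over all entries tested. Each adjusted p in the text is from this fit unless an alternative is named beside it. The script was tested on simulated data. For the fit across lines these had less noise than the libraries, no overall shift with BGJ398 and no listing limit. That check therefore does not show how reliable the calls given here are. The pairing comes from the cell line, and 2 residual degrees of freedom remain per gene. With 3 pairs of different lines, p-values measure the spread between lines at different doses. Named genes were the 10 members, genes chosen from those of each list that were called or among its 4 most abundant (1 is not reported here, and a few were added after their values were seen: Srf, Zfp36, Ier5l, Prdx2 and BC042782), and the 5 entries most like Junb. The members and lists were chosen with earlier results of these data known. Alternatives were the pseudocount, the filter, the scaling, the block and leaving out each line. The trend was removed with lowess (span 0.3).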

Additional observations from a re-analysis of the deposited data

Results flagged for a closer look

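Jun was singled out because the lines moved in opposite directions. The log2 difference, BGJ398 minus DMSO, was -0.74 in BBC, 1.37 in ZNF and -1.71 in BCRF8C. With 1 library for each line and agent, the difference between the lines was not tested.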

How the results depend on the processing

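The count of all entries called, 5236 as deposited, was 4 after median-of-ratios scaling (3 higher, 1 lower), 2 on quantile-normalized values, 0 without the expression trend, and 7 with no replicate block. Without 1 pair it ranged from 0 to 4974 (0 without BBC, 1648 without BCRF8C). Among entries above 0 in all 6 libraries, an alternative chosen after seeing the data, it was 7287 (1620 higher, 5667 lower), and 408 with the trend removed. It was 5295 without the filter, 5225 at a mean of at least 5 FPKM and 4805 without the intensity trend. The count of the set, 1 as deposited, was 0 at a pseudocount of 5, under each of the 3 other scalings, with no replicate block and without any 1 pair (range 0 to 0). It was 1 without the intensity trend, but Egr2 higher in place of Ier3 lower. It was 2 without the filter (Egr2 higher, Ier3 lower), 3 at a mean of at least 5 FPKM, 4 among entries above 0 in all libraries (Junb, Ier2 and Ier3 lower, Egr2 higher) and 0 there with the trend removed. Egr2 was under the listing limit in DMSO in each line, so its calls are no evidence of a rise. The numbers of entries tested at 5 FPKM and among entries above 0 are not given here, so the shares called are missing.

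Counts of genes at least 2-fold lower were 1 (pseudocount 5) and 0 (each other scaling) in BBC, 1 (pseudocount 0.1, quantile) in ZNF and 2 (quantile, trend removed) in BCRF8C. Counts of those higher were 1 (pseudocount 0.1) and 3 (median-of-ratios) in BBC, 0 (pseudocount 5, quantile) and 1 (trend removed) in ZNF, and 0 (pseudocount 5, trend removed) and 1 (quantile) in BCRF8C. The median log2 difference of the 9 genes became 0.77, 0.12 and 0.13 in BBC (median-of-ratios, quantile, trend removed; -0.003 as deposited), 1.64 in ZNF (pseudocount 0.1; 0.66 as deposited) and 0.23 in BCRF8C (median-of-ratios; -0.47 as deposited). Directions turned for Jun, -0.36 as deposited, which was 0.33 (median-of-ratios), 0.17 (quantile), 0.45 (trend removed, with or without the filter on zeros) and between -1.22 and 0.32 without 1 pair, and for Dusp1, -0.18 as deposited, which was 0.44 (median-of-ratios) and 0.17 (trend removed, with or without that filter). The untested mean of Fos, 0.66 as deposited, was -0.15 (quantile), and Egr3 in BBC, 0.21 as deposited, was -0.49 (quantile) and -0.27 (trend removed). Junb in BBC was 0.055 with the trend removed, against -1.47 as deposited. The cause of these changes was not tested. Depth, being unknown, sets a limit that could not be stated for values under about 1 FPKM.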

Other observations

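A pair of early genes outside the set, picked after their values were seen, had their widest difference in ZNF. Other early genes outside the set, such as Dusp5 and Gadd45b, were lower with BGJ398 in ZNF. Egr4 had 11.9 FPKM with BGJ398 and 0.350 FPKM in DMSO in ZNF, a log2 difference of 3.26, against 0.63 in BBC and 1.77 in BCRF8C. Ier5l, a relative of the Ier genes, had 9.81 FPKM with BGJ398 and 0.110 FPKM in DMSO in ZNF, a log2 difference of 3.28, against 0.59 in BBC and 0.98 in BCRF8C. Both were under the listing limit in DMSO in ZNF, which fixes their direction there but not their level with BGJ398. Ier5l did not pass across lines (limma adjusted p = 0.0607), and the difference between the lines was not tested.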
